A study of Mus musculus with 24 samples.

Results

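The 20 RNAs described here are short small nucleolar RNA (snoRNA) genes that lie inside ribosomal protein genes. A row of the count table was taken when its gene was annotated as snoRNA, had a symbol not starting with Snora and spanned under 100 bases. It also had to lie fully inside a protein-coding gene whose symbol starts with Rpl or Rps, on the same strand, and to hold 20 or more counts over all libraries. Of 55335 genes in the table, 35 met the conditions on type, length and position, and 20 of these met the count. The count chose the members, so their levels are given as a description. The member nearest the threshold was Gm27326 with 36 counts, and the 15 rows that missed it all stood at 0. Together the 20 members held 5831887 of 25027120 counts, or 23.3%, in 10 host genes.

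Small RNA was sequenced in mouse embryonic stem cells (mESC), and in neural progenitor cells (NPC) differentiated from them, in lines that differ at Htt, the gene that causes Huntington's disease when its CAG repeat expands. The groups in each cell type were Htt WT, Htt KO (knockout), and the heterozygous knock-in lines Q20, Q50, Q92 and Q111, named after the repeat number of the altered allele. Each of the 12 groups had 2 libraries, which the series' design calls biological samples without saying whether cultures were separate, so p-values measure the spread between these libraries. The Q92 line has 92 repeats in the titles and 89 in the growth protocol. The stem cells grew on irradiated mouse fibroblasts with leukemia inhibitory factor. The progenitors grew on laminin with FGF and EGF.

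Box C/D snoRNAs carry a box C near the 5′ end and a box D near the 3′ end, where fibrillarin (Fbl), Nop56, Nop58 and Snu13 bind. Bases just upstream of box D, or of an inner copy of it, pair with ribosomal or other RNA and place a 2′-O-methyl group there. In mammals most of them are not transcribed alone: they are trimmed out of introns of host genes after splicing, and ribosomal protein genes, whose mRNAs encode the large (Rpl) or small (Rps) subunit proteins, are frequent hosts.

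The sequences below were chosen because they carry the label or a comparison made further on, and come from the GENCODE release 21 transcripts (GRCm38). Capitals mark TGATG, the core of box C, found within the first 16 bases, and CTGA, the box D, found within the last 16, on the RNA strand. The first 2 are among the 5 members with the highest counts.
Snord83b (Rpl3, chr15:80078498-80078591, minus strand): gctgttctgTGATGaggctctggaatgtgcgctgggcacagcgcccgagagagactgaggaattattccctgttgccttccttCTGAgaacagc
Gm23969 (Rpl7a, chr2:26911261-26911334, plus strand): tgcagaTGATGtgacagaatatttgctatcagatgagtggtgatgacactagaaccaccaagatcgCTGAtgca
The next 2 come from introns of Rpl13a and moved apart between the cell types.
Snord32a (chr7:45127382-45127464, minus strand): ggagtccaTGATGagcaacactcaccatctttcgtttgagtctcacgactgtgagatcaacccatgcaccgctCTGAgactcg
Snord34 (chr7:45126601-45126670, minus strand): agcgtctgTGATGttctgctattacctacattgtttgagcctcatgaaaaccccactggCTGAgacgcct
Rpl4 holds the next 3, the widest range of levels within a host.
Gm23344 (chr9:64175048-64175115, plus strand): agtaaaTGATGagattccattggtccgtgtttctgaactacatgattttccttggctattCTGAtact
Gm22571 (chr9:64175873-64175942, plus strand): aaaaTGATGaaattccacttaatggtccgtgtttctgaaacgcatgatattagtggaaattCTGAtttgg
Gm23136 (chr9:64176661-64176759, plus strand): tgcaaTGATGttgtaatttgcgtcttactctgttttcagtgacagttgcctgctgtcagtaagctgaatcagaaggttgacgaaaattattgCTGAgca
The last shown is the member with the lowest count, and it has neither motif in those windows.
Gm27326 (Rpl23, chr11:97780182-97780276, minus strand): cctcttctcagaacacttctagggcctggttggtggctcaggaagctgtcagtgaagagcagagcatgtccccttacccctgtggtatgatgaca

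Both motifs were found in 19 of 20 members, and in 328 of the 458 short snoRNA rows of the whole table whose symbol does not start with Snora (71.6%). None of the 17 rows named Snora with 20 or more counts, an H/ACA class that has no box C or D, held both. Gm27326 has neither in the windows searched, and its 0 to 6 counts per library kept it out of every test that used the filter on low counts. The other 19 members passed the filter on low counts in every comparison. The sequences are 65 to 99 bases long, and the labels give 50-base single reads, so no read can cover a whole member.

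Members of a host resembled each other where they have a common stretch. Gm23344 and Gm22571 of Rpl4 share the 17 bases tggtccgtgtttctgaa, which run up to and through an inner CTGA. Rnu73b and Snord73a of Rps3a1 share the 13 bases tgtttcggtccca, and Snord42a and Snord42b of Rpl23a share the 18 bases caaaggaaccactgatgc, which include box D.

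Gm23301 and Gm26202 lie in neighbouring introns (5 and 6) of Rpl17 on chromosome 18 (GRCm38 75001455 to 75001519 and 75001880 to 75001944, plus strand). They aligned with 83.1% identical columns and share a run of 30 bases. A read that lies inside such a run cannot be told apart, and how the authors treated reads with several matches is not given in the sources used here. Snord58b, the third member in Rpl17 (75001058 to 75001123), has 70.3% of its 30-base stretches in common with Gm22354, a row at 0, so its values are uncertain.

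The members sat at a similar place in their introns. The distance from the 3′ end of the snoRNA to the 3′ splice site had a median of 92 bases (63 to 1803), and lay between 60 and 120 bases in 14 of 20. The rows at 0 had a median of 72 bases, with 10 of 15 in that range.

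Whether a snoRNA of a ribosomal protein gene was counted at all went with the annotation of its host. Of the 35 candidates, 14 were covered over their full length by an exon of another transcript of the host, mostly one annotated as a retained intron, and all 14 stood at 0. All 19 without such cover had counts. Snord42b was covered over 31.9% of its length and had 11939 counts, and Gm22455 over 83.1% and had 0. Each library's 0 allows up to 3 counts, which is 1.27 to 4.67 counts per 1000000 counts of the library (CPM) in mESC and 4.40 to 8.77 CPM in NPC, for counting error only. The rows at 0 include Snord33 of Rpl13a, Snord16a of Rpl4, Snord68 of Rpl13, Snord21 of Rpl5 and Gm24134 and Gm22879 of Rpl7a. Snord33 is a well known box C/D snoRNA and has both motifs, as have 12 of the 15 rows at 0.
Snord33 (chr7:45126864-45126947, minus strand): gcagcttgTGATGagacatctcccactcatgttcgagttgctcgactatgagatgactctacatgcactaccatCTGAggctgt

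**Figure D1:**
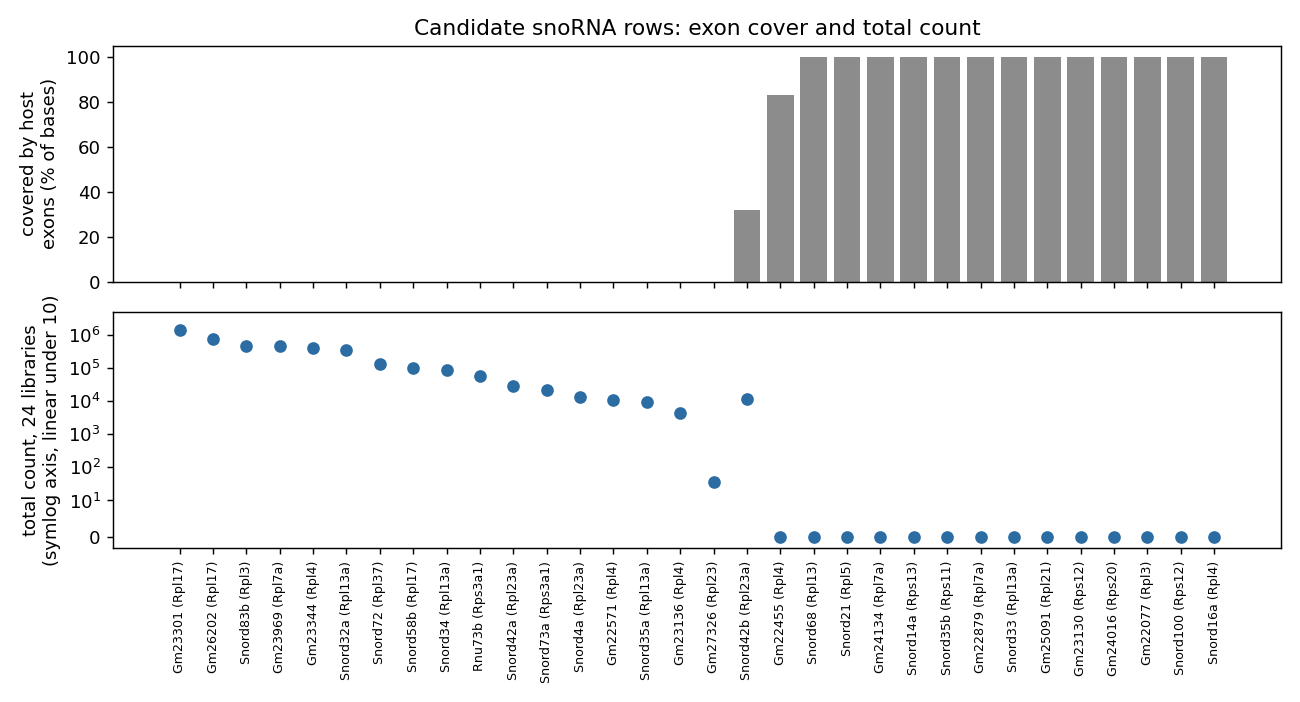
The upper panel gives the share of each candidate's bases covered by exons of its host (percent) and the lower panel its total count over 24 libraries (symlog axis) for 32 of the candidate rows, host in brackets. The 13 rows covered in full stand at 0, and the 17 rows without cover stand between 36 and 1421303 counts.

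Over all snoRNA rows of the table the pattern was less strict. Of 157 covered in full by an exon of another gene on the same strand, 1 had a count, against 207 of 1293 without such cover and 20 of 57 with part cover. The Rpl7a row itself held 49065 counts, while the next ribosomal protein gene, Rpl4, held 430. Rpl7a is the host of Gm24134 and Gm22879, whose bases lie in its annotated exons. For these 15 rows, absence of the RNA and loss of its reads in counting cannot be told apart, and they enter no comparison below.

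Levels differed widely between members. Per kilobase of gene length, mean CPM over the 24 libraries ran from 742566 for Gm23301 and 534276 for Gm22980 to 1651 for Gm23136 and 13.9 for Gm27326. Gm23301 made up 24.4% of the members' counts, Gm22980 17.8% and Gm26202 13.4%. Snord83b (8.35%) and Gm23969 (8.01%) followed. Members of a single host, which leave the same primary transcript, also stood far apart. In Rpl4, Gm23344 stood 137 times above Gm23136 per kilobase, and in Rpl13a, Snord32a stood 55.0 times above Snord35a. The same ratio was 13.6 in Rpl17, 2.51 in Rps3a1 and 2.05 in Rpl23a. Division by length widens some of these gaps. Undivided, the total counts were 410328 for Gm23344 and 4548 for Gm23136, and 373447 for Snord32a and 9425 for Snord35a. Whether counts follow the amount of RNA equally in different members was not tested.

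Library totals ranged from 642384 to 2360434 counts for mESC and from 342022 to 682113 counts for NPC. The Y RNA Rny1 took 0.644% to 1.65% of counts in mESC and 13.0% to 40.3% in NPC, and these counts are part of the totals. Levels between libraries are therefore given as scaled CPM, counts per 1000000 of the library total times its TMM scaling factor. Markers of each cell type were checked. The 16 stem cell genes, among them Pou5f1, Nanog and Mir293, held 2153 to 4326 counts per mESC library. They held 200 and 234 counts in the NPC Q20 libraries, and 0 or 1 in the other 10 NPC libraries. Of the 434 counts in NPC Q20, Mir302b held 261 and Mir293 107, while Pou5f1 held 2 and Nanog 0. Of the 35808 counts in mESC, Mir293 held 20821, Pou5f1 95 and Nanog 129. The 12 progenitor genes, among them Nes, Fabp7 and Olig2, held 3 to 25 counts per mESC library and 56 to 146 per NPC library, with Mir9-2 and Mir124a-1 at 0 in both. The 8 fibroblast genes held 11 to 55 counts per mESC library and 1 to 15 per NPC library, with Postn at 0. Of their 348 counts in mESC, Fn1 held 295 and Sparc 49. Col1a1, Col1a2 and Col3a1 stood at 0 in mESC and at 3, 2 and 7 in NPC. All these marker values are raw counts, from libraries that differ in total. The 2 mESC Q50 libraries stood apart from each other: Snord73a was 1434 scaled CPM in replicate 1 and 266 in replicate 2, Gm22571 1112 and 366, and Snord35a 619 and 169. Results that rest on Q20 or Q50 are given with and without them, except that slopes were not fitted without Q50. In bulk RNA, fewer cells of a type and less RNA per cell cannot be told apart.

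Between the cell types, most members were lower in NPC. Of 19 tested, 15 were lower and 1, Snord32a, was higher by edgeR's quasi-likelihood test (adjusted p under 0.05), against 58.4% of all 904 genes called (28% lower and 30.4% higher). The median log2 change of the members was -0.50, and that of all genes -0.02. The largest falls were in Gm23301, Snord58b, Snord42a and Gm22980, from 2.19-fold to 1.91-fold lower. Without the Q50 groups, 18 members were called, all lower, against 612 of 1200 genes, and without the Q20 groups 15 were lower and 1 higher, against 486 of 850 genes.

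Gm23301 of Rpl17 ranged from 44179 to 98836 scaled CPM in the 12 mESC libraries, with a median of 75556, and from 24883 to 43768 in the 12 NPC libraries, with a median of 30819. Every NPC library lay below every mESC library (with library totals also, but 10 of 12 with DESeq2 size factors and 11 with snoRNA rows alone for scaling), which held for 3.87% of all genes tested; the reverse order, seen in no member, held for 7.08%. On the log2 scale it changed by -1.13 ± 0.12 (SE, edgeR adjusted p 1.72e-08), or 2.19-fold lower. Gm26202, from the next intron, ranged from 26743 to 45470 (median 37330) in mESC and from 20945 to 32096 (median 24507) in NPC. The ranges overlapped, with 7 of 12 NPC libraries below the lowest mESC library, and the change was -0.50 ± 0.09 (edgeR adjusted p 6.36e-05). Snord58b changed by -1.03 ± 0.14 (edgeR adjusted p 1.04e-06), with 10 of 12 NPC libraries below the lowest mESC library.

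Gm22980, the member with the second highest level, was also lower. It ranged from 34878 to 70964 scaled CPM (median 50567) in mESC and from 19752 to 34024 (median 26578) in NPC. These ranges did not overlap either (8 of 12 NPC libraries lay below with DESeq2 size factors and 11 with library totals), and the change was -0.93 ± 0.10 (SE, edgeR adjusted p 4.81e-08), or 1.91-fold lower.

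The 3 snoRNAs of Rpl23a were all lower. Snord42a ranged from 757 to 1840 scaled CPM (median 1359) in mESC and from 398 to 1142 (median 681) in NPC, a change of -0.94 ± 0.15 (SE, edgeR adjusted p 1.20e-05). Snord4a changed by -0.66 ± 0.13 and Snord42b by -0.43 ± 0.15. Snord42a and Snord4a lie opposite an exon of Tlcd1 on the other strand, and since the strand setting of the counting is not given in the sources used here, reads of that gene cannot be told apart from theirs.

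In Rpl4, Gm23344 changed by -0.57 ± 0.12, Gm22571 by -0.81 ± 0.18 and Gm23136 by -0.80 ± 0.19 (SE, all 3 called by edgeR). The Rpl4 row itself, with 360 counts in mESC and 70 in NPC, changed by -0.95 ± 0.25 (edgeR adjusted p 0.00266). Rpl4 exons cover Snord16a in full and Gm22455 over 83.1% of its length, and both stood at 0. Reads of these snoRNAs and of Rpl4 mRNA therefore cannot be told apart in this row. Gm23969 of Rpl7a changed by -0.46 ± 0.11, and its host row by -0.11 ± 0.13 (edgeR adjusted p 0.488), with the reservation given above on what that row holds. The other 8 hosts of members had too few counts for a test, from 5 in Rpl17 to 142 in Rpl3.

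Rpl13a, whose snoRNAs are known from work on lipotoxic stress, was the host in which members moved in opposite directions. Snord32a ranged from 8505 to 19300 scaled CPM (median 15256) in mESC and from 13696 to 32583 (median 19800) in NPC. It was the one member called higher, by 0.46 ± 0.10 (SE, edgeR adjusted p 0.000331), and 6 of 12 NPC libraries lay above the highest mESC library. Without the Q50 groups the change was 0.16 (adjusted p 0.200), so this call rested on them. Snord34 ranged from 1871 to 5400 (median 4008) in mESC and from 1792 to 4096 (median 2847) in NPC, a change of -0.50 ± 0.14 (edgeR adjusted p 0.00347). Snord35a had a change of -0.35 ± 0.18 that was not called (edgeR adjusted p 0.0915).

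Snord55 changed by -0.66 ± 0.12 (SE, edgeR adjusted p 4.12e-05), and 4 of 12 NPC libraries lay below its lowest mESC library. Snord72 of Rpl37 changed by -0.31 ± 0.12 (edgeR adjusted p 0.0275) and Rnu73b of Rps3a1 by -0.41 ± 0.17 (edgeR adjusted p 0.0424). Snord73a of Rps3a1, at -0.26 ± 0.20, was not called (edgeR adjusted p 0.260). The call of Rnu73b was lost without any 1 of 16 of the 24 libraries (edgeR adjusted p up to 0.165, without mESC Q50 replicate 1), and that of Snord72 without any 1 of 5 (up to 0.0719, without mESC WT replicate 1). Without mESC Q50 replicate 2, Snord73a (-0.39, edgeR adjusted p 0.0150) and Snord35a (-0.46, edgeR adjusted p 0.00502) were called, and Snord35a was also called without mESC KO replicate 2 (-0.51, edgeR adjusted p 0.0229). Snord83b of Rpl3 had a change of -0.02 ± 0.09 (edgeR adjusted p 0.889), with ranges of 11293 to 25846 (median 21868) in mESC and 15499 to 36677 (median 18546) in NPC. Without the Q50 groups it was -0.44 (edgeR adjusted p 0.000490) and called.

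**Figure D2:**
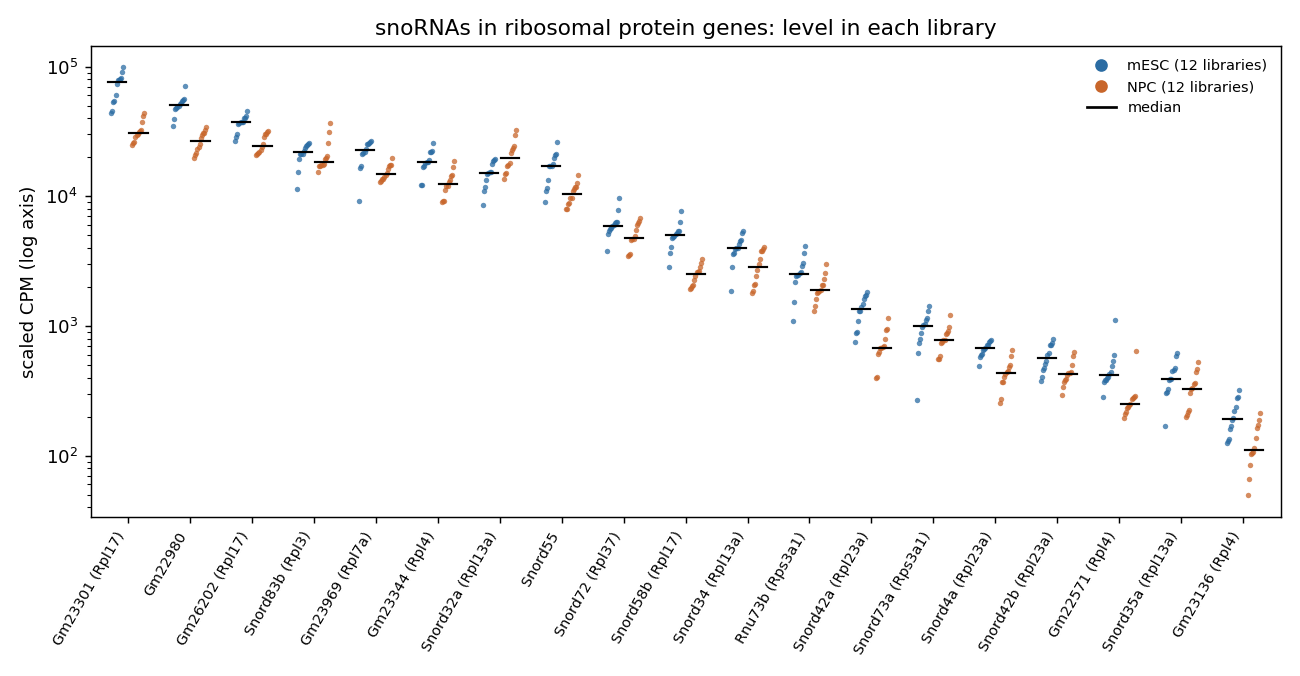
Scaled CPM (log axis) of the 19 tested members in each of 12 mESC and 12 NPC libraries, with the host of most in brackets and the median as a line. Gm23301 and Gm22980 do not overlap between the cell types on this scale (they do with DESeq2 size factors), and Snord32a is the one member called higher in NPC.

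**Figure D3:**
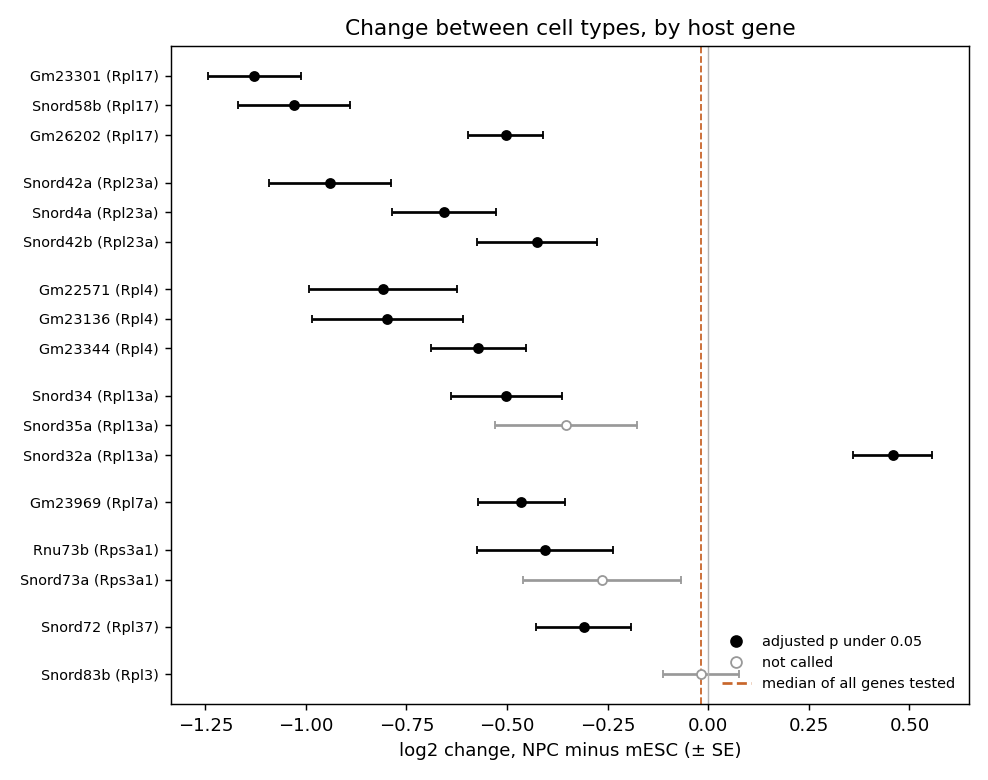
The log2 change from mESC to NPC with its standard error for 17 members, grouped by host, with the median of all 904 genes tested (-0.02) as a dashed line. Filled points were called at an adjusted p under 0.05. The 3 snoRNAs of Rpl13a span both sides of 0.

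The scaling moved these values. Library totals in place of TMM raised the median of all genes by 0.34 and that of the members to -0.16. The split of calls went from 1 higher and 15 lower to 2 higher and 10 lower, and Snord72 (0.040), Snord73a and Snord83b (0.31) turned positive. Relative to the median of all genes the members stood at -0.48 with library totals and at -0.49 with TMM. Under all 4 scalings tried, 10 members were called lower and 1, Snord32a, higher. The 10 were Gm23301, Gm22980, Gm26202, Snord58b, Snord42a, Snord4a, Snord55, Gm23344, Gm22571 and Gm23136. The 4 wild-type libraries alone called 1 member, Gm22980.

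Shares of counts need no scaling factor. The members took 20.9% to 28.8% of all counts in mESC and 17.5% to 23.1% in NPC. All counts include Rny1, which took a mean of 1.04% in mESC and 24.3% in NPC. A fall in this share therefore cannot be told apart from the rise of Rny1. Of the counts on all snoRNA genes the members took 34.0% to 42.1% in mESC and 33.8% to 41.4% in NPC, ranges that overlap almost in full. Within the members, Gm23301, Gm22980 and Gm26202 together held 55.4% to 60.1% in mESC and 40.9% to 53.5% in NPC, with no overlap.

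Ratios of snoRNAs from the same host also need no scaling, and 14 pairs could be formed. The ratio of Gm23301 to Gm26202 lay between 1.45 and 2.24 in the mESC libraries (median 1.91) and between 0.989 and 1.39 in the NPC libraries (median 1.24). All 12 NPC libraries lay below all 12 mESC libraries, the one pair of the 14 without overlap. The 2 WT mESC libraries stood at 2.17 and 1.63, and the 2 WT NPC libraries at 1.39 and 1.38. In every mESC group this ratio was lower in replicate 2, from 1.45 against 2.24 in KO to 2.09 against 2.10 in Q20. Outside Q20, mESC replicate 2 also had the lower library total. Whether replicate or depth moves the ratio was not tested. The ratio of Snord32a to Snord34 had a median of 3.41 (2.26 to 7.96) in mESC and 7.43 (5.76 to 8.85) in NPC. Its ranges met only through the mESC Q50 replicate 2 library at 7.96, since the next mESC library stood at 5.27.

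**Figure D4:**
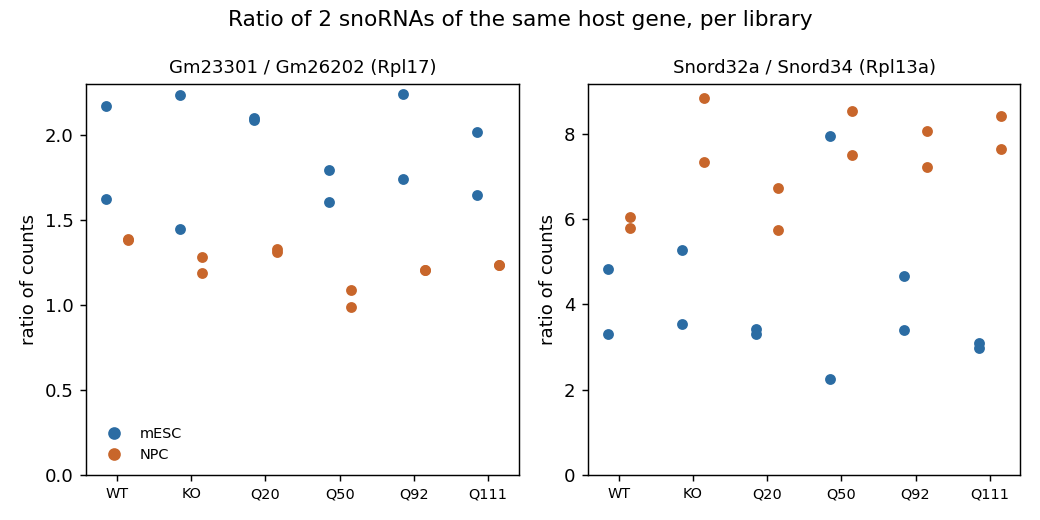
Ratio of the counts of 2 snoRNAs of the same host in each library, by genotype (2 libraries each) and cell type. For Gm23301 over Gm26202 all NPC points lie below all mESC points, and for Snord32a over Snord34 a single mESC Q50 point, at 7.96, reaches into the NPC range.

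Other short snoRNAs, tested in the same fit, give the frame for these counts. Of 27 tested in other protein-coding genes, 11 were higher and 10 lower in NPC (median log2 change -0.05), of 18 outside coding genes 1 was higher and 15 lower (median -2.11), and of 14 Snora rows 4 were higher and 5 lower (median 0.14). Among the proteins of the box C/D particle, Nop58 had enough counts for a test, with 257 in mESC and 26 in NPC and a change of -2.13 ± 0.35 (SE, edgeR adjusted p 1.29e-05). Fbl (22 counts), Nop56 (122) and Snu13 (22) did not, nor did the 9 assembly factors with a row, among them Nufip1, Ruvbl1, Ruvbl2 and Nolc1, at 8 to 66 counts. The libraries were made from small RNA, and counts on these mRNA genes are low. Whether the Nop58 counts are reads of its mRNA or of a small RNA inside the gene was not tested.

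Among the NPC lines, members differed between Htt genotypes. The labels name no second line of any genotype, so genotype cannot be told apart from line, differentiation or culture. A difference among the 6 genotypes was called for 11 of 19 members by edgeR's quasi-likelihood F test, against 37.2% of the 441 genes tested. The 11 were Snord32a, Snord83b, Gm23136, Snord34, Gm23344, Gm23301, Snord72, Snord35a, Rnu73b, Snord42a and Gm22980. In the same test, 14 of 26 short snoRNAs in other coding genes were called, 14 of 17 outside coding genes and 2 of 11 Snora rows. All differences from WT below share the 2 WT libraries. The spread between the 2 replicates was unequal, and the test pools it over all groups. Chi-square per degree of freedom between replicate counts was 3.76 in NPC Q92, 4.85 in Q20 and 7.29 in Q111. It was 36.5 in Q50, 76.2 in KO and 94.4 in WT. The NPC Q20 libraries carry stem cell markers, mostly microRNAs. Without the Q20 group 10 members were called, against 88 of 405 genes. Without the Q50 group there were 13, against 124 of 429.

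Of the 3 snoRNAs of Rpl13a, Snord34 and Snord35a had their lowest means in Q92 and Q111 under all 4 scalings tried. The scaled CPM of Snord34 were 4096 and 3798 in WT, 2423 and 3309 in KO, and 2695 and 2998 in Q20. The Q50 libraries had 3946 and 3818, the Q92 libraries 2099 and 1856 and the Q111 libraries 1792 and 2076 (edgeR adjusted p 0.000496). The 4 libraries of Q92 and Q111 lay below the other 8, except with library totals, where Snord34 in Q92 replicate 1 (3150 CPM) was above Q50 replicate 2 (2878 CPM). Against WT the log2 difference was -0.69 in Q92 and -0.90 in Q111. Snord35a followed the same order, with 206 and 224 in Q92, 197 and 217 in Q111 and 302 to 529 in the other 8 libraries (edgeR adjusted p 0.0168). Snord32a stood at 23706 and 22946 in WT, 21452 and 24322 in KO, and 18148 and 17260 in Q20. For Q50 it was 29617 and 32583, for Q92 15162 and 14993, and for Q111 13696 and 17476 (edgeR adjusted p 8.76e-05). The order of Snord32a depended on the scaling. With TMM, DESeq2 size factors and snoRNA rows alone it was highest in Q50, and with library totals in KO (28485 and 29532 CPM, against 27104 and 24562 in Q50). Q92 and Q111 had the lowest means with TMM and DESeq2 size factors, and Q111 and Q20 with the other scalings.

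Snord83b of Rpl3 was also highest in Q50. Its values were 25773 and 20426 scaled CPM in WT, 17365 and 19787 in KO, and 17187 and 17763 in Q20. The Q50 libraries reached 31596 and 36677, while Q92 gave 17114 and 17447 and Q111 gave 15499 and 19329 (edgeR adjusted p 0.000173). Both Q50 libraries lay above all others, by 0.52 on the log2 scale against WT, and KO, Q20, Q92 and Q111 overlapped. Without the Q50 group the adjusted p was 0.0426.

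Gm23136, the weakest of the 3 Rpl4 snoRNAs, had an order of its own. It stood at 138 and 105 scaled CPM in WT, 84.0 and 103 in KO, and 106 and 115 in Q50. The Q20 libraries had 173 and 211, the Q92 libraries 164 and 189 and the Q111 libraries 49.4 and 66.3 (edgeR adjusted p 0.000288). These rest on 19 to 135 counts per NPC library. The Q20 and Q92 libraries lay above the rest and the Q111 libraries below. Gm23344 of the same host did not share this order: it stood at 18866 and 14690 in WT and 12862 and 12083 in Q20, and was lowest in Q92 (9148 and 9025) and Q111 (9270 and 11245), with an edgeR adjusted p of 0.00521. With library totals the groups with the lowest means of Gm23344 were Q111 and Q50.

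**Figure D5:**
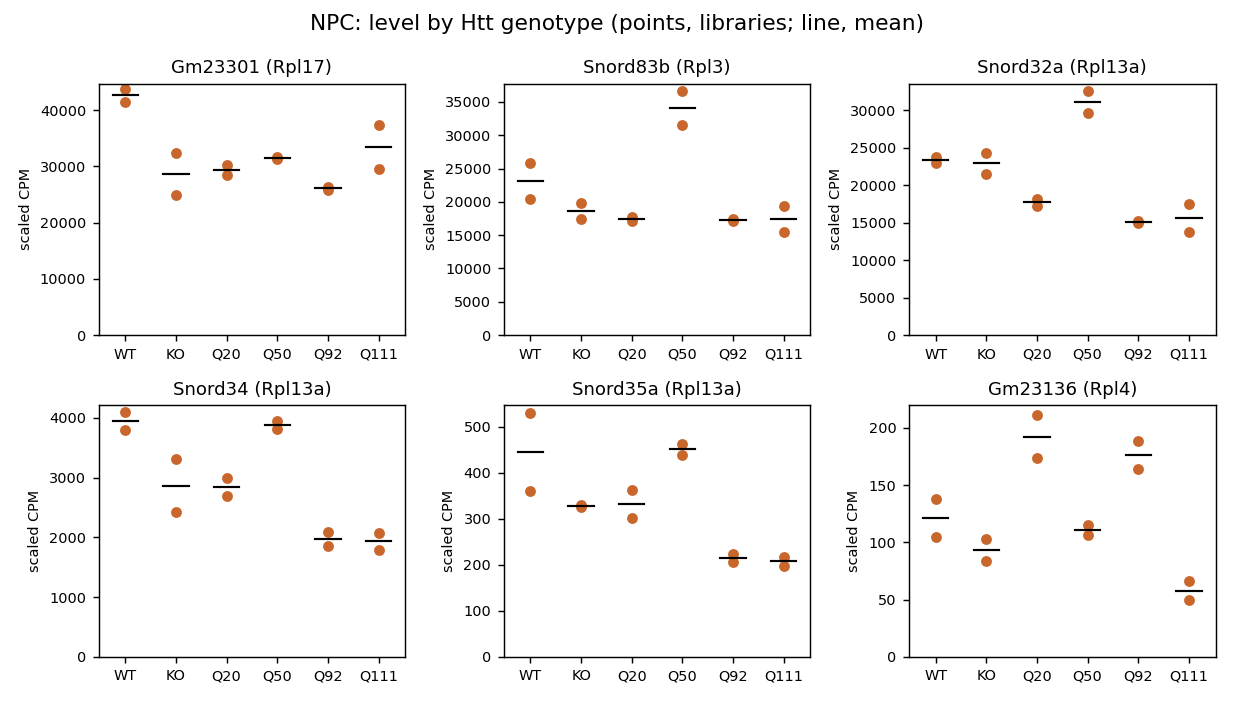
Scaled CPM of 6 members in NPC by Htt genotype, 2 libraries each as points with the mean as a line, axes from 0. On this scale Snord34 and Snord35a are lowest in Q92 and Q111, Snord83b and Snord32a highest in Q50 (Snord32a in KO with library totals), and Gm23136 lowest in Q111.

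Some of these calls depended on the setting. Without a filter on low counts, the calls of Gm23301 (edgeR adjusted p 0.0830), Gm22980 (0.988), Snord72 (0.171) and Snord42a (0.178) were lost. Snord42a was also lost with library totals (0.208), without Q20 (0.0641) and without Q50 (0.108), and Gm22980 without Q20 (0.0727). Scaling by snoRNA rows alone called 7 of 19, against 166 of 441 genes: Snord32a, Snord83b, Gm23136, Snord34, Gm23301 and Gm22980 of the 11, and Gm26202. Leaving out 1 library ended the call of Gm22980 for Q20 replicate 1 (edgeR adjusted p 0.172), both Q92 replicates (0.112 and 0.102) and both Q111 replicates (0.147 and 0.118). It ended that of Snord42a for both Q20 replicates (0.0557 and 0.0734), Q50 replicate 1 (0.0951), both Q92 replicates (0.144 and 0.133) and Q111 replicate 1 (0.0505). Snord35a lost its call without Q92 replicate 1 (0.0524) or either Q111 replicate (0.0647 and 0.0738), Rnu73b without Q111 replicate 1 (0.0543) and Snord72 without Q20 replicate 2 (0.0644).

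The comparison of Htt KO with WT sets the knockout line beside the WT line, so loss of Htt cannot be told apart from other differences between these lines. In NPC, 1 of 19 members was called by edgeR, Gm23301, where 1.36% of the 441 genes were called, 1.13% lower. It stood at 43768 and 41458 scaled CPM in WT and 24883 and 32322 in KO, with no overlap, a difference of -0.50 ± 0.10 (SE, edgeR adjusted p 0.0112). The difference was -0.30 with library totals and -0.32 with snoRNA rows alone, and was called under neither; without NPC KO replicate 1 its adjusted p was 0.111 and without NPC WT replicate 1 it was 0.0611. Of the 19 members, 17 had a negative value (median -0.31), against 45.1% of all genes (median 0.08), and 10 had an unadjusted p under 0.05, against 51 of 441 genes. Other snoRNAs also had negative medians: -0.20 for short ones in other coding genes, -0.08 for those outside coding genes and -0.14 for Snora rows. DESeq2 called 7 members, all lower, against 24 of 441 genes. In mESC, edgeR called 0 of 19 in KO against WT, with 0 of 1766 genes called in all and 0 members at an unadjusted p under 0.05, and the members' median was -0.11.

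Among the mESC lines no member was called for genotype by edgeR (0 of 19, 0 at an unadjusted p under 0.05, against 0.0566% of 1766 genes). In fits without a replicate block, edgeR's biological coefficient of variation was 37.9% there and 17.3% in NPC. Part of the mESC spread went with the replicate number. Gm23301 was lower in replicate 2 in all 6 mESC groups, by ratios of 0.543 to 0.999, and Gm22980 by 0.676 to 0.988. Gm23344, Snord55, Snord72, Rnu73b, Snord73a, Gm22571 and Snord35a were also lower in replicate 2 in all 6. Snord42b was higher in replicate 2 in all 6, by ratios of 1.04 to 1.98, and the other members went both ways. With the replicate block 0 of 19 members were called, against 29 of 1766 genes.

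The slope on CAG repeat length over the 4 knock-in lines was called for 0 of 19 members in NPC by edgeR, against 6.45% of 403 genes, with 5 members and 71 genes at an unadjusted p under 0.05. The steepest were Snord35a, at -0.09 ± 0.03 log2 units per 10 repeats (SE, edgeR adjusted p 0.175), and Snord34, at -0.08 ± 0.02 (edgeR adjusted p 0.0837). Gm22980 had a positive slope of 0.06 ± 0.02 (edgeR adjusted p 0.0532). Without the Q20 group 3 members were called, Snord32a, Snord34 and Snord83b, at -0.13 per 10 repeats each (edgeR adjusted p 0.00856, 0.0166 and 0.0100), against 15 of 353 genes. Mean scaled CPM in Q50, Q92 and Q111 were 31100, 15078 and 15586 for Snord32a and 3882, 1978 and 1934 for Snord34. For Snord83b they were 34136, 17280 and 17414. These slopes set Q50 apart from Q92 and Q111, which stood close together, and no slope was fitted without Q50. In mESC 0 of 19 were called, with 0 of 1487 genes in all and 0 members at an unadjusted p under 0.05.

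Whether the change from mESC to NPC differs between genotypes was tested in the fit of 24 libraries. By edgeR's F test 1 of 19 members was called, Snord83b (adjusted p 0.00868), against 2.1% of the 904 genes. With library totals the 1 member called was Gm23136 (adjusted p 0.0494) in its place.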

How the data were processed

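One table deposited by the authors gives raw read counts for each gene in 24 libraries. The submitters' processing notes name CASAVA 1.8, STAR and HTSeq and the build GRCm38.p6. Annotation, strand setting, adapter trimming and treatment of reads with several matches are not given in the sources used here. The 4 columns named Q89 were assigned to the samples titled Q92, whose growth protocol gives 89 repeats. Gene identifiers were matched to GENCODE mouse release 21 (55154 of 55335), which supplied symbols, positions, exons and sequences.

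Tests used edgeR 4.0.16 in R 4.3.3 (glmQLFit, glmQLFTest, TMM scaling, filterByExpr with a minimum count of 10 and total of 15), with Benjamini-Hochberg adjustment over all genes tested and a threshold of 0.05. NPC against mESC was the mean of 6 NPC groups minus the mean of 6 mESC groups in a fit of 24 libraries. Genotypes were compared within the 12 libraries of a cell type, and slopes over the 8 knock-in libraries. Scaled CPM come from the 24-library fit, and log2 differences between genotypes from the fit within a cell type. Alternatives were DESeq2 size factors, library totals, snoRNA rows alone for scaling, no filter, DESeq2 1.42.0, a replicate block, fewer groups and leaving out each library. Leaving out the Q50 group was chosen after seeing the data. The members and gene lists were chosen with earlier results of these data known. Named were Gm23301, Gm26202 and Gm22980, the 5 members with the largest totals, up to 5 called members per direction and comparison, the members next to the count threshold and hosts with 2 or more members; Snord35a, Snord72, Snord73a and Snord42b were added after their values were seen. The fits were tried on simulated counts with up to 200 genes changed by a log2 value of 2. For genotype this was set in Q111 alone, for the cell type effect by genotype in NPC Q111 alone, and for slopes from Q20 to Q111. Smaller changes were not simulated. Of the changed genes tested, 100% were called for NPC against mESC (193 genes). In NPC it was 84.7% for genotype (131), 89.5% for KO against WT (133) and 85% for the slope (120). In mESC it was 58.2% for genotype (184), 36.2% for KO against WT (185) and 60.4% for the slope (187). For the cell type effect by genotype it was 12.7% (157).

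Sequences from mouse chromosome 18 and results on 1 host gene are not reported here.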

Additional observations from a re-analysis of the deposited data

Results flagged for a closer look

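The change between cell types differed between genotypes for 1 of 19 members, Snord83b, by edgeR's test of the difference itself (adjusted p 0.00868, against 2.1% of 904 genes called). From mESC to NPC its mean scaled CPM went from 13324 to 34136 in Q50, a log2 change of 1.36, and changed by -0.04 in WT, -0.19 in KO, -0.30 in Q111, -0.40 in Q92 and -0.55 in Q20. The adjusted p was 1 without a filter on low counts, 0.111 with library totals, 0.150 with snoRNA rows alone, 0.361 without the Q20 groups, 0.853 without the Q50 groups and 0.0891 without NPC Q50 replicate 2. The 2 mESC Q50 libraries, which stood apart from each other in other members, gave 11293 and 15354 for Snord83b, both below all other mESC libraries on this scale. Snord83b was still called without mESC Q50 replicate 1 (adjusted p 0.0312) or replicate 2 (0.00335), and not without the whole Q50 group.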

How the results depend on the processing

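The count of members called between the cell types, 16 of 19, was 14 to 18 when any library was left out, 16 with the replicate block, 15 with DESeq2, 13 with snoRNA rows alone, 12 with library totals and 18 of 20 without a filter. Wild-type libraries alone called 1 member and 123 genes. The members' median change was -0.50 and became -1.13 without a filter, -0.78 without Q50, -0.22 in wild-type libraries alone and -0.16 with library totals (relative to all genes -0.49, and -0.78, -0.73, -0.18 and -0.48 in that order); library totals also turned Snord72 (0.040) and Snord83b (0.31). Wild-type libraries alone turned Gm22571 (0.036), Rnu73b (0.077) and Snord72 (0.087), and no filter turned Snord32a (-0.099). In NPC, the 11 members with a genotype difference became 7 with snoRNA rows alone and 7 to 16 without a library. The 1 member called in KO against WT became 0 with library totals, snoRNA rows alone, no filter or the 4 libraries alone, 7 with DESeq2 and 0 to 2 without a library. The 0 members with a slope in NPC became 1 with snoRNA rows alone, 3 without the Q20 group and 0 to 1 without a library. The 1 member whose change differed by genotype became 0 with snoRNA rows alone, no filter, without Q20 or without Q50, and 0 to 3 without a library; with library totals it was Gm23136, not Snord83b. The cause of these shifts was not tested.

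Over all genes, no filter called 2024 in NPC against mESC. For genotype in NPC (164) there were 88 without Q20 and 97 to 224 without a library. For genotype in mESC (1) there were 3 with library totals, 5 with snoRNA rows alone, 6 without a filter, 8 with DESeq2, 29 with the replicate block, 0 without Q20, 3 without Q50 and 0 to 2 without a library. For KO against WT in NPC (6) there were 10 with DESeq2 size factors, 1 with library totals, 1 with snoRNA rows alone, 0 without a filter, 24 with DESeq2, 0 with the 4 libraries alone and 0 to 21 without a library. For the slope in NPC (26) there were 50 without a filter, 11 with DESeq2, 9 with the replicate block, 15 without Q20 and 6 to 26 without a library. For the slope in mESC (0) there were 2 without a filter, 3 with the replicate block and 0 to 2 without a library. For the change by genotype (19) there were 0 without Q20 and 9 to 33 without a library.

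Replicate numbers were not taken as pairing the libraries. Of 15 pairs of mESC groups, the 10 without Q20 had replicate differences that correlated (0.408 to 0.516). The 5 with Q20 gave 0.000144 to 0.0784. In NPC 4 of 15 pairs were over 0.1. The highest of these, at 0.437, was WT with KO, the groups set against each other in KO against WT. The block changed no count of called members by more than 1, with 12 for genotype in NPC. The lowest totals, in NPC, limit Gm23136 (19 to 135 counts) and Gm27326 (0 to 2) most.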
